A study of Caenorhabditis elegans with 32 samples.

Results

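The comparison set the small RNAs of dissected gonads of second-generation (F2) meg-3;meg-4 double mutant worms, descended from a mutant grandfather, against those of wild type. It rests on 6 of the 32 libraries of the series, 3 of the mutant F2 (numbered 1, 3 and 4) and 3 of wild type (numbered 1, 2 and 3), chosen by their labels alone. All were made from young adult Caenorhabditis elegans kept at 20 °C, with RNA extracted on a column kit. Wild type was strain SX1263, which carries the transgene mjIs134 on chromosome II (Pmex-5::gfp::h2b::tbb-2), a green fluorescent protein fused to histone H2B that the mex-5 promoter drives in the germline. The mutant F2 carried meg-3(tm4259), meg-4(ax2026) and the same kind of transgene, and descended from an SX1263 hermaphrodite and a BFF40 male, BFF40 being the double mutant strain. Their grandmother was thus wild type, and the mutations came from the grandfather.

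Beside these stood 9 libraries from the same extraction, 3 for each of 3 related groups. They were the wild-type F2 of the same (paternal) cross, the double mutant F2 of the reverse (maternal) cross of a BFF40 hermaphrodite with an SX1263 male, and the long-term double mutants, kept as a strain for many generations. Wild type extracted with a phenol reagent, labelled as the same strain, is quoted in places as a level, and its other differences from the column-kit wild type cannot be told apart from the extraction. Nothing in the labels says whether replicates came from separate cultures, so p-values measure only the spread between these libraries. Each library pools gonads, and in such bulk samples fewer cells of a type and less RNA per cell cannot be told apart.

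MEG-3 and MEG-4 are intrinsically disordered proteins that form part of P granules, the RNA-rich germ granules of the worm germline, and the embryo needs them to assemble P granules in its germ cells. Germ granules hold Argonaute proteins, which bind small RNAs and use them to recognise transcripts. In the worm germline most such small RNAs are 22G RNAs, made by RNA-dependent RNA polymerases on a target transcript and therefore antisense to it, while piRNAs are short RNAs encoded in the genome that mark transcripts as foreign. Small RNAs can pass from parents to offspring, and a gene's count here is the number of small RNA reads assigned to that gene, not the level of its messenger RNA. The sources used here do not give the strand setting of the counting, so sense and antisense reads at a locus cannot be separated.

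The 6 libraries held between 3429452 and 14871375 reads assigned to features, and 55.6% to 59.5% of tallied reads were assigned. The shallowest was mutant F2 library 3 and the deepest wild-type library 3. Levels are counts per 1e+06 feature counts (CPM), on which 3 counts, taken as the smallest detectable level, correspond to 0.202 to 0.875 CPM. Protein-coding genes took 76.9% to 81.8% of counts and pseudogenes 12.1% to 14.0%. Of 46779 features, 10230 had enough reads to be tested (at least 10 counts in at least 3 of the 21 column-kit libraries). Of the libraries quoted beside them, long-term mutant library 3 had 126214 counts, and its levels are quoted with that in view. Mutant F2 library 3 stood apart at piRNA loci, with 0.143% of its counts there against 0.0574% and 0.0637% in the other two.

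Marker loci of the gonad and of other tissues were examined next. The microRNA genes mir-1 of muscle and lsy-6 and mir-791 of neurons were at 0 in all 6 libraries, and the gonad and embryo mir-35 family (8 genes) summed to 2.24 to 3.77 CPM in wild type and 2.62 to 5.06 CPM in mutant F2. These values do not give the level of the microRNAs, since features on the opposite strand of the same loci held many reads: Y62F5A.9, opposite mir-35 to mir-41, had 4817 to 10538 CPM in wild type and 5486 to 17295 CPM in mutant F2, and T09B4.14, opposite mir-1, had 370 to 1008 CPM and 5286 to 6091 CPM. Small RNAs at 28 major sperm protein genes summed to 1.34 to 4.91 CPM in wild type and 1.17 to 12.8 CPM in mutant F2, and none of the 5 tested was called. At the 6 vitellogenin genes, expressed in intestine, the sums were 29.3 to 34.2 CPM in wild type, 7.29 to 16.4 CPM in mutant F2 and 8.10 to 15.2 CPM in wild-type F2, with none of 6 called. At 4 muscle myosin genes they were 9.17 to 11.6, 0 to 1.45 and 3.09 to 5.89 CPM, and the 1 gene tested was called lower. The part of these shifts in the results that follow was not tested.

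The mutated genes were examined first. Small RNAs at meg-3 (WBGene00001569, WBcel235 chromosome X, 1986469 to 1989607) were at 10.3, 16.4 and 15.1 CPM in wild type and 5.1, 2.33 and 5.55 CPM in mutant F2. The groups did not overlap, and the fitted log2 fold change was -1.49 (SE 0.38, adjusted p = 0.0218 by edgeR's quasi-likelihood test with Benjamini-Hochberg adjustment over all tested features, which gives every adjusted p below). At meg-4 (WBGene00016485, chromosome X, 1682954 to 1686419) wild type had 43.6, 40.3 and 40.6 CPM and mutant F2 had 20.4, 15.2 and 19.3 CPM. These groups did not overlap either, but the difference did not pass the threshold of 0.05 (log2 fold change -1.01, SE 0.61, adjusted p = 0.305). Which part of each gene the alleles remove is not given in the sources used here, so the reads left at either locus do not check the labels. The gfp transgene had 51, 65.8 and 75.3 CPM in wild type and 53.7, 56.9 and 76.2 CPM in mutant F2, groups that overlapped (log2 fold change 0.12, SE 0.20, adjusted p = 0.794, with a slightly negative sign under total-count scaling).

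Against wild type, mutant F2 differed at 940 of 10230 tested features, a background of 9.19%, with 447 higher (4.37%) and 493 lower (4.82%). The decreases were larger than the increases: the median log2 fold change was 1.01 among features called higher and -1.74 among those called lower, against 0.04 over all tested features. At least a doubling was found at 226 of the higher features and at least a halving at 435 of the lower ones. Libraries of the groups did not overlap at 863 of the 940 called features (91.8%) and at 32.2% of all tested features. The split by direction depended on the scaling, with 272 higher and 580 lower when scaled by relative log expression, 191 and 594 when scaled by total counts, 424 and 753 with DESeq2 and 337 and 812 in a fit of only these groups. These scalings moved the median of all features from 0.04 to -0.07 (relative log expression) and -0.13 (total counts).

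The count also depended on single libraries. It was 334 without mutant F2 library 4 and 558 without library 1, and 389 and 385 without wild-type libraries 1 and 2. Against the phenol wild type, which crosses the extractions, 1658 features were called, and these included 211 of the 447 higher and 382 of the 493 lower features. No feature was called in the opposite direction under any alternative.

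**Figure D1:**
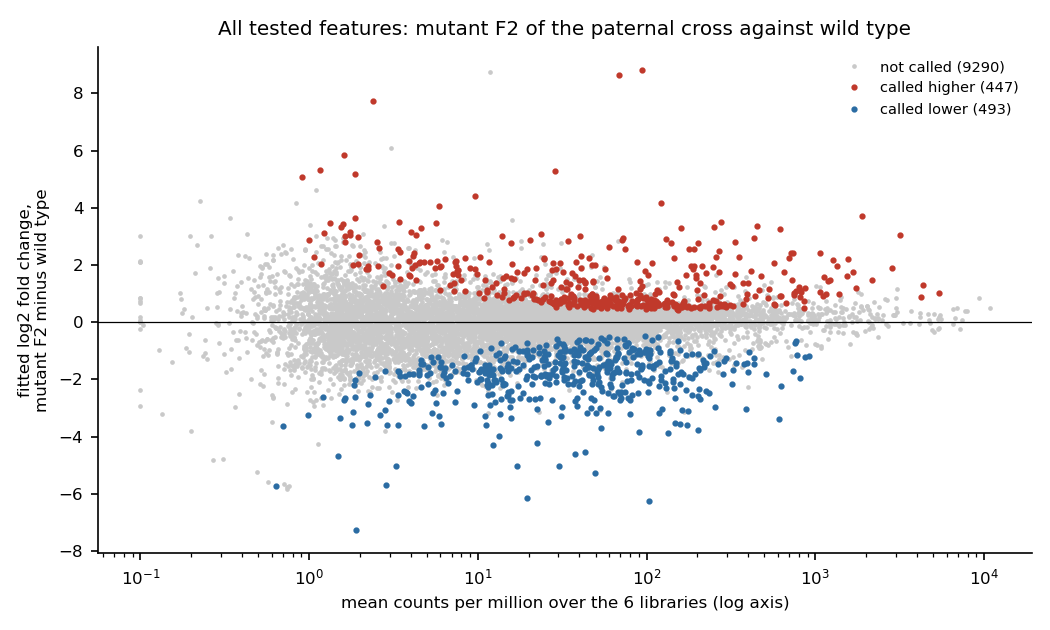
Fitted log2 fold change of mutant F2 of the paternal cross minus wild type (vertical axis) against the mean level over the 6 libraries in CPM (horizontal log axis, levels below 0.1 drawn at 0.1), with 1 point for each of the 10230 tested features. Red points are the 447 features called higher, blue points the 493 called lower and grey points the rest. The blue points reach farther from 0 than most red ones, with medians of -1.74 and 1.01.

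The largest increases among features with non-overlapping libraries and a mean of at least 5 CPM in the higher group were at 3 pseudogenes that lie next to each other on chromosome V. WBGene00014681 (15034380 to 15035420) had 0.671, 0.335 and 0.403 CPM in wild type and 149, 126 and 288 CPM in mutant F2. WBGene00007715 (15037795 to 15038835) had 0.224, 0.502 and 0.336 CPM in wild type and 92.5, 125 and 192 CPM in mutant F2. Every mutant F2 library was far above every wild-type library at both. WBGene00007721 (15032142 to 15034069) had 2.01, 2.01 and 1.01 CPM in wild type and 43.1, 37.0 and 86.3 CPM in mutant F2, again without overlap. The fitted log2 fold changes were 8.82 (SE 0.98, adjusted p = 3.49e-05), 8.65 (SE 0.77, adjusted p = 4.54e-06) and 5.30 (SE 0.62, adjusted p = 4.69e-05). Since wild type held 2 to 6 and 1 to 5 counts per library at the first pair, the ratio of pooled counts is the safer size, at 430 (95% counting interval 240 to 862) and 372 (195 to 814). The flanking protein-coding genes were not called, cng-1 at an adjusted p of 0.666 and sdc-3 at 0.959, and neither was F14H8.8 within cng-1 (adjusted p = 0.132).

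The same 3 pseudogenes were also high in the wild-type F2 of the cross. WBGene00014681 had 291, 226 and 73.1 CPM in wild-type F2, which overlapped mutant F2 (adjusted p = 0.998). Its level was 590.2 to 1018 CPM in mutant F2 of the maternal cross and 579.7 to 897 CPM in long-term mutants, above every mutant F2 library of the paternal cross (adjusted p = 0.0482 and 0.0398). The annotated lengths of WBGene00014681 and WBGene00007715 are equal and near-identical copies could share reads, so their separate values are uncertain.

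Among protein-coding genes, an abundant and large increase was at qdpr-1 (WBGene00011398, chromosome III, 13393910 to 13394979), which encodes dihydropteridine reductase, an enzyme that regenerates the cofactor tetrahydrobiopterin. It had 321, 306 and 276 CPM in wild type and 3365, 4247 and 2821 CPM in mutant F2 (log2 fold change 3.70, SE 0.34, adjusted p = 4.54e-06). The wild-type F2 lay between them at 1269, 1612 and 919 CPM, overlapping neither group. F40A3.3 (WBGene00018218, chromosome V, 7877444 to 7878514) had 15.0, 12.7 and 15.1 CPM in wild type and 228, 265 and 194 CPM in mutant F2 (4.17, SE 1.23, adjusted p = 0.0415, lost in 8 of 15 alternatives). The wild-type F2 was also high at F40A3.3, with 158, 206 and 135 CPM, and overlapped mutant F2 (adjusted p = 0.945). At this gene the mutant F2 of the maternal cross was low, at 3.52 to 9.01 CPM, and the paternal-cross mutant F2 was called above it (log2 fold change 5.23, SE 1.35, adjusted p = 0.0287). C15F1.8 (WBGene00015797, chromosome II, 6975982 to 6977832) had 42, 46.2 and 62.5 CPM in wild type and 779, 272 and 450.5 CPM in mutant F2 (3.50, SE 0.75, adjusted p = 0.00827). Its wild-type F2 level, at 344, 290 and 333 CPM, overlapped mutant F2 (adjusted p = 0.842), and wild-type F2 of the maternal cross had 2143 ± 300 CPM.

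The remaining features among the 10 largest increases were low in both groups. They were pals-27 of the pals family, known for members that control the response to intracellular pathogens (0.741 ± 0.381 CPM in wild type and 11.0 ± 6.76 CPM in mutant F2, SD, n = 3 for each group here and below), the F-box gene fbxa-224 (0.552 ± 0.285 and 6.27 ± 1.42 CPM) and the hedgehog-related gene wrt-4 (1.06 ± 0.553 and 10.3 ± 9.80 CPM). Their log2 fold changes were 4.06 (SE 0.85), 3.50 (SE 0.72) and 3.48 (SE 0.83). The wrt-4 mean rested on library 3 at 21.6 CPM, and without it the call was lost, as it was without wild-type library 1 or 3. The piRNA locus 21ur-9204 completed the 10 and is described with its class below.

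**Figure D2:**
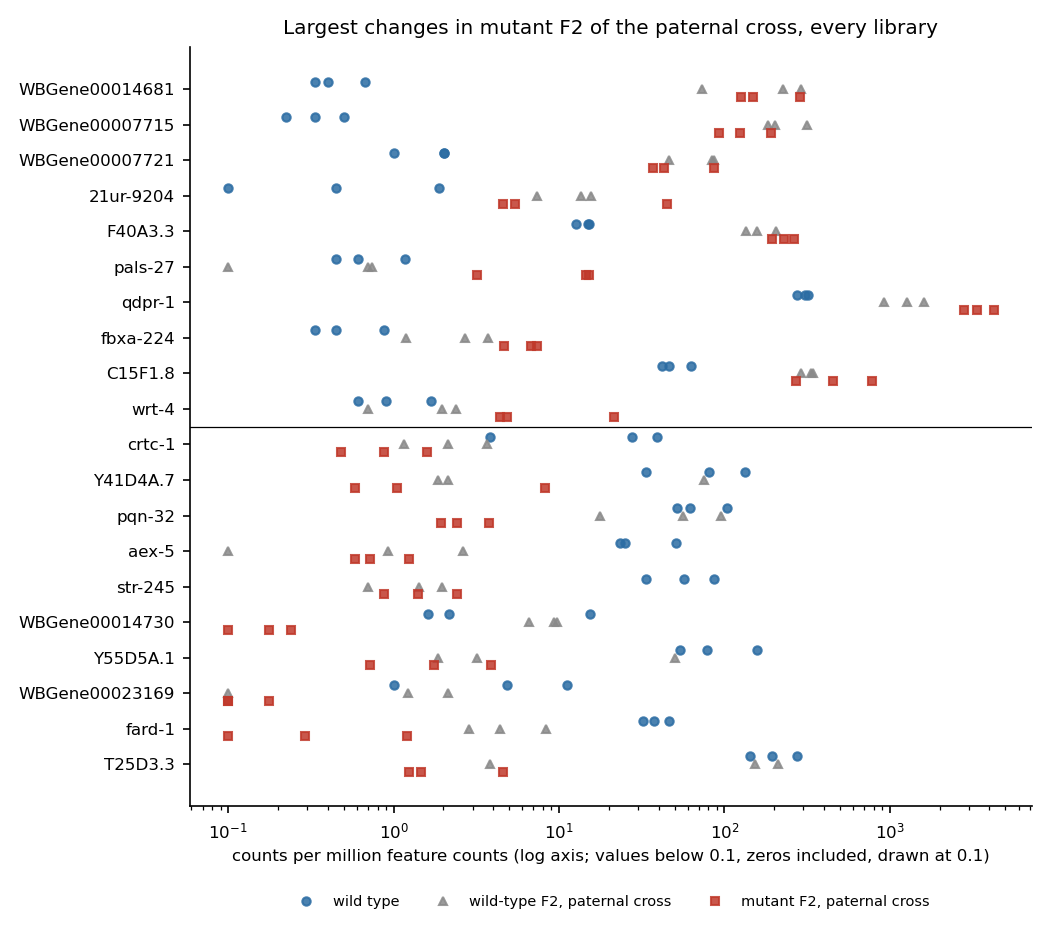
Levels in CPM (horizontal log axis, values below 0.1 drawn at 0.1) of the 10 largest increases (above the line) and the 10 largest decreases (below it) of paternal-cross mutant F2 over wild type, with 1 point per library. Circles are wild type, squares mutant F2 and triangles wild-type F2 of the same cross. At the V pseudogenes the triangles lie with the squares, while at pals-27 they lie with the circles.

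Among the largest decreases, several genes had abundant small RNAs in wild type. T25D3.3 (WBGene00020797, chromosome II, 152583 to 154945) fell from 275, 144 and 194 CPM in wild type to 1.23, 1.46 and 4.58 CPM in mutant F2 (log2 fold change -6.26, SE 1.15, adjusted p = 0.00278). It overlaps T25D3.4 and mrpl-28, whose reads the counting could have split differently. Y55D5A.1 (WBGene00021915, chromosome III, 2982409 to 2988150), which overlaps Y55D5A.4, had 158, 79 and 54.1 CPM in wild type and 3.87, 1.75 and 0.723 CPM in mutant F2 (-5.27, SE 1.02, adjusted p = 0.00403). pqn-32 (WBGene00004120, chromosome II, 13108019 to 13110169), which encodes a glutamine- and asparagine-rich protein and overlaps rict-1, had 62.0, 51.7 and 103 CPM in wild type and 1.94, 3.79 and 2.41 CPM in mutant F2 (-4.60, SE 0.68, adjusted p = 0.000543). No mutant F2 library reached the lowest wild-type library at these genes, and their calls held in all 15 alternatives. Y41D4A.7, which overlaps Y41D4A.3, had 82.7 ± 50.1 and 3.28 ± 4.27 CPM (-4.53, SE 1.22, adjusted p = 0.0272, lost in 4 of 15 alternatives).

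At several other large decreases the phenol wild type was already low. fard-1 (WBGene00022200, chromosome X, 2933361 to 2937742), which encodes a fatty acyl-CoA reductase, had 46.5, 37.5 and 32.2 CPM in wild type and 0, 0.292 and 1.21 CPM in mutant F2 (-6.16, SE 0.75, adjusted p = 6.9e-05). It had 0 to 0.316 CPM in phenol wild type, against which the log2 fold change was 1.54 and not called (adjusted p = 0.43). The overlapping genes str-245, a chemoreceptor, and aex-5, a proprotein convertase, lie on chromosome I. They had 59 ± 26.5 and 33.2 ± 15.5 CPM in wild type and 1.56 ± 0.780 and 0.846 ± 0.341 CPM in mutant F2, but 5.35 ± 3.32 and 1.87 ± 1.64 CPM in phenol wild type, against which neither was called. crtc-1, a coactivator of CREB-driven transcription, had 3.8, 39.3 and 27.5 CPM in wild type, 0.980 ± 0.558 CPM in mutant F2 and 5.32 ± 2.49 CPM in phenol wild type. Unlike the preceding genes it was also called lower than phenol wild type (log2 fold change -2.26, adjusted p = 0.0315). The last of the 10, the pseudogene WBGene00014730 and the transfer RNA gene WBGene00023169, had 0 or 1 count in each mutant F2 library, and wild type exceeded mutant F2 by ratios of pooled counts of 27.8 (95% counting interval 7.50 to 232) and 49.2 (8.62 to 1965). Wild-type library 1 was the highest at both, with 69 counts against 13 and 24 and with 50 counts against 29 and 15. The call at WBGene00014730 was lost in 6 of 15 alternatives and that at WBGene00023169 in 3 of 14, both of them without wild-type library 1.

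The most abundant features with a log2 fold change of at least 1 in size were taken separately. sqst-1 (WBGene00011737, chromosome IV, 12034282 to 12036891), the worm counterpart of the autophagy receptor p62, had 3633, 3791 and 4261 CPM in wild type and 7342, 7178 and 6364 CPM in mutant F2 (log2 fold change 1.01, SE 0.26, adjusted p = 0.0215). The pseudogene WBGene00206497 rose from 2759 ± 344 to 5992 ± 1064 CPM (1.30, SE 0.28, adjusted p = 0.00897) and stood at 4476 ± 403 CPM in phenol wild type, against which the call was lost. Among abundant decreases, W03D8.7 (WBGene00020988, chromosome I, 2796130 to 2797464) had 1492, 1240.4 and 1211 CPM in wild type and 354, 322 and 224 CPM in mutant F2 (-1.96, SE 0.27, adjusted p = 0.000296). The wild-type F2 lay between them at 761, 956 and 637 CPM. F39F10.2 on chromosome X (1325 ± 301 and 523 ± 125 CPM, -1.18, SE 0.23, adjusted p = 0.0041), the cadherin gene cdh-12 (1259 ± 93.6 and 478 ± 199 CPM, -1.22, SE 0.33, adjusted p = 0.0277) and the fatty acid amide hydrolase gene faah-5 (1117 ± 214 and 451 ± 80.2 CPM, -1.14, SE 0.34, adjusted p = 0.0438) also fell. At these 3 genes the wild-type F2 overlapped wild type and not mutant F2, at 1358 ± 180.0, 1427 ± 106 and 1272 ± 181 CPM. cdh-12 and faah-5 overlap other annotated genes. The sqst-1, cdh-12 and faah-5 calls were lost in 4, 5 and 6 of 15 alternatives.

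A pair of abundant increases lay opposite microRNA genes. The mir-1 gene itself was at 0 CPM in all 6 libraries. Whether the counts at the opposite features are microRNA reads was not tested. T09B4.14 (WBGene00196099, chromosome I, 6172671 to 6172796), a non-coding RNA gene that overlaps mir-1, had 898, 370.5 and 1008 CPM in wild type and 5389, 5286 and 6091 CPM in mutant F2 (log2 fold change 3.04, SE 0.45, adjusted p = 0.000543). gid-2 (WBGene00020301, chromosome X, 2429859 to 2438957), which overlaps mir-81 and mir-82, had 1059.5, 1225 and 1753 CPM in wild type and 5203, 3911 and 4030.3 CPM in mutant F2 (1.88, SE 0.32, adjusted p = 0.00142). Both were also high in the wild-type F2, at 4149 ± 1392 and 3846 ± 1119 CPM, and in phenol wild type, at 6632 ± 1376 and 2935 ± 732 CPM. The long-term mutants were low at T09B4.14, with 878 ± 89.7 CPM.

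Genes of the small RNA machinery are themselves targets of small RNAs in the germline, and lists of them were counted by role. Over 10 lists, 29 of 320 tested genes were called (9.06%, close to the background of 9.19%), 23 higher and 6 lower. The list medians are read beside the median of 0.04 for all features. RNAi and mutator genes had 6 of 36 tested members higher and none lower (median 0.24). Argonaute genes had 2 of 17 higher and 1 lower (median 0.27), and piRNA pathway genes 3 of 15 higher (median 0.19). Germ granule genes had 1 of 35 higher and 1 lower (median 0.22), and nuclear RNAi and histone methylation genes 1 of 19 higher (median 0.15). Most changes were small, and the number of listed genes called was 11 higher and 9 lower when scaled by relative log expression, 8 each way when scaled by total counts, and 7, 7 and 6 in all without mutant F2 library 4 and wild-type libraries 1 and 2 in turn.

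The largest increases among these genes were at factors needed for RNA interference. rde-11 (WBGene00023421, chromosome IV, 13105200 to 13106927), an RNAi factor, had 172, 227 and 349 CPM in wild type and 1300.4, 808 and 1459.9 CPM in mutant F2 (log2 fold change 2.43, SE 0.51, adjusted p = 0.00696). sid-1 (WBGene00004795, chromosome V, 5119970 to 5126916), a channel for double-stranded RNA, had 521, 549 and 531 CPM in wild type and 1221, 757 and 1045 CPM in mutant F2 (1.09, SE 0.33, adjusted p = 0.0471, lost in 9 of 15 alternatives). Neither gene's libraries overlapped between the groups. Both were higher in the other mutant groups, sid-1 at 4347 to 6712 CPM in the maternal-cross mutant F2 and 6335 to 8172 CPM in long-term mutants. The paternal-cross mutant F2 was called below both groups at sid-1 (log2 fold changes -2.70 and -3.10) and at rde-11 (-2.13 and -2.30).

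The other machinery genes called higher had log2 fold changes of 0.50 to 0.91. They were drh-1, a RIG-I-like helicase (0.69), nyn-1, of the NYN nuclease family (0.68), mut-14, a DEAD-box helicase of the mutator complex (0.65), and ego-1, a germline RNA-dependent RNA polymerase (0.55). prg-1, the Piwi protein that binds piRNAs, had 455, 465 and 521 CPM in wild type and 639, 637 and 720.3 CPM in mutant F2 (0.64, SE 0.18, adjusted p = 0.0334). wago-4, an Argonaute of small RNA inheritance, had 459, 497 and 532 CPM in wild type and 626, 686 and 671 CPM in mutant F2 (0.59, SE 0.17, adjusted p = 0.0366). The groups did not overlap at these Argonautes, while ergo-1, which binds the 26G class of small RNAs and overlaps pei-2, fell (-0.61, SE 0.19, adjusted p = 0.0481). parn-1, which trims piRNA 3′ ends (0.72), and pid-1, a factor of piRNA production (0.91), rose, as did heri-1, a chromodomain protein that limits RNAi inheritance (0.63), and mip-2, a germ granule protein that binds MEG-3 (0.50). None of these genes was called between mutant F2 and wild-type F2. The prg-1, wago-4, mut-14, mip-2 and parn-1 calls were lost in 12 or more of 15 alternatives, and those of the other genes of this paragraph in 6 to 10. The groups overlapped at mut-14.

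Among germline genes, meiosis genes had 4 of 26 tested members higher and none lower (median 0.27), beside 4.37% higher over all features. The 4 became 2 under relative log expression scaling, 1 under total-count scaling and 3 with DESeq2. The chromosome axis genes htp-1 (306 ± 34.2 CPM in wild type and 475 ± 35.8 CPM in mutant F2, log2 fold change 0.81, adjusted p = 0.00463), htp-2 (0.85) and htp-3 (0.55) rose, and so did zim-3 (0.72), which pairs homologous chromosomes. The groups overlapped at htp-2 and zim-3. The htp-3 call was lost in 14 of 15 alternatives, that of htp-2 in 10, zim-3 in 5 and htp-1 in 1. Germline sex and sperm genes had 2 of 22 higher and 1 lower (median 0.06), beside 9.19% called over all features. gld-1, a translational repressor of oocyte messenger RNAs, had 80.7, 76.8 and 91.4 CPM in wild type and 118, 139 and 136 CPM in mutant F2 (0.83, SE 0.15, adjusted p = 0.00267). The RNA-binding protein gene daz-1 rose (0.63), and spe-6, a kinase gene of spermatogenesis, fell from 6.93, 7.53 and 7.13 to 1.06, 0.875 and 1.21 CPM (-2.58, SE 0.79, adjusted p = 0.0471). The daz-1 call was lost in 12 of 15 alternatives, that of spe-6 in 8 and that of gld-1 in 2.

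Histone genes had the highest list median, 0.40, with 5 of 67 tested genes higher and none lower. Ribosomal protein genes had the lowest, -0.27, with none of 81 higher and 3 lower. Over all features 4.37% were higher and 4.82% lower. With DESeq2 the counts were 6 histone genes higher, and 1 ribosomal protein gene higher and 8 lower. Relative to the median of all features the list medians were 0.36 and -0.31, and they stayed between 0.34 and 0.37 and between -0.31 and -0.30 under relative log expression scaling, total-count scaling and DESeq2. The called histone genes were the linker histone hil-2 (0.89), the centromeric histone paralog cpar-1 (0.97), the H2A variant htz-1 (0.75) and 2 gene identifiers named his-47 in the annotation (2.11 and 2.08). Histone genes are a multigene family, and WBGene00001931, the second his-47, also overlaps klp-12, so their values are uncertain. The called ribosomal protein genes were rpl-20 (65.5 ± 17.7 CPM in wild type and 23.9 ± 7.17 CPM in mutant F2, -1.28), rpl-23 (-1.02) and rps-11 (-1.09). The calls were lost in 2 (cpar-1) to 9 (htz-1) of the alternatives among these histone genes and in 4 to 7 among these ribosomal protein genes. At rpl-20 the wild-type F2 had 17.5, 20.9 and 16.2 CPM and overlapped mutant F2.

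**Figure D3:**
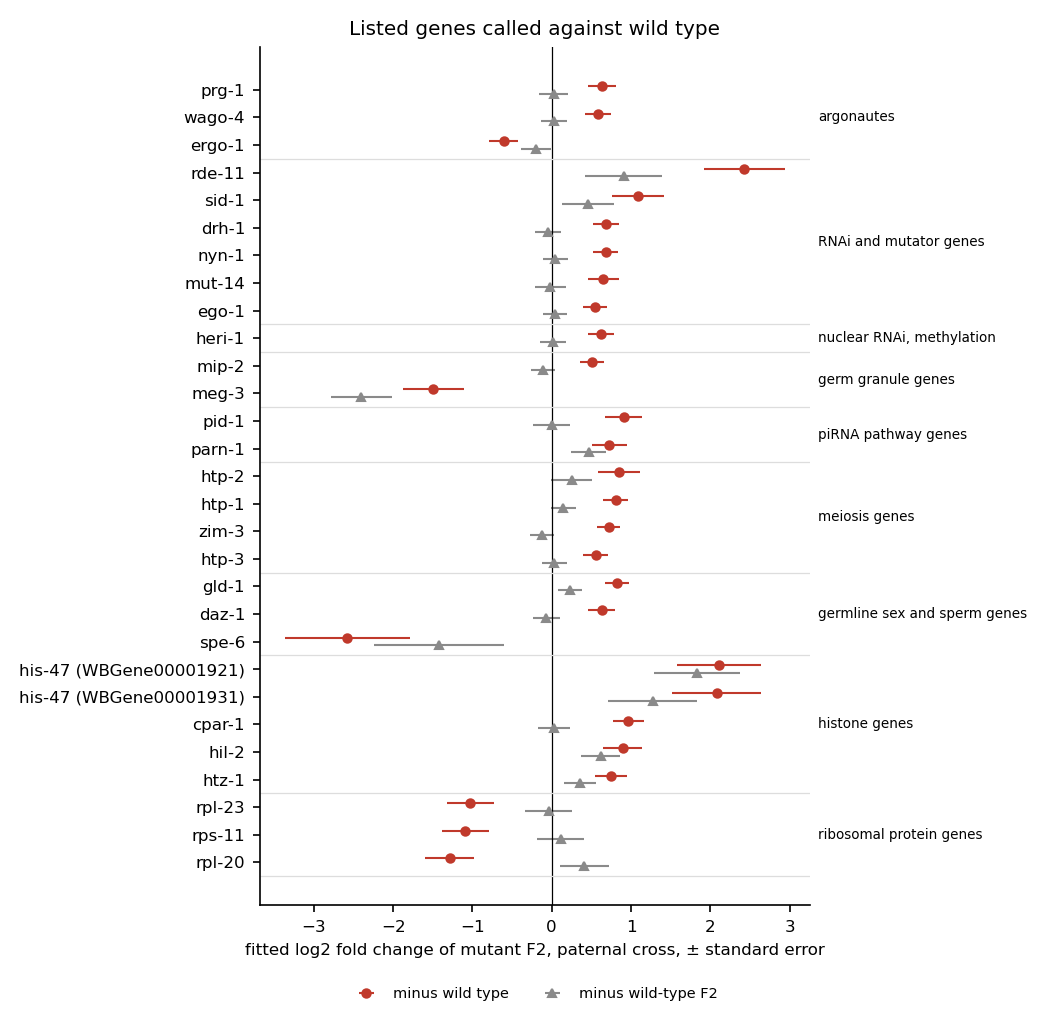
Fitted log2 fold change with its standard error (horizontal axis) of the 29 listed genes called against wild type, grouped by list. Red circles are mutant F2 of the paternal cross minus wild type, and grey triangles the same mutant F2 minus wild-type F2 of the same cross, so both share the mutant F2 libraries. Most triangles lie near 0, while meg-3 lies at -1.49 and -2.40.

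Feature classes differed in how often they were called. Of 84 tested piRNA loci, 12 were higher and 1 lower (15.5%), of 59 small nucleolar RNA (snoRNA) genes 10 were higher and 1 lower (18.6%), and of 9 ribosomal RNA genes 3 were higher. The 84 were the few of 15363 piRNA loci that met the count minimum, which the 12 F2 libraries among the 21 could meet alone. Some called loci were near the floor in wild type, such as 21ur-6003 at 0.671, 0 and 0.134 CPM. How far the minimum favoured increases at piRNA loci was not tested. Protein-coding genes were near the background at 379 higher and 447 lower of 9109 (9.07%), as were pseudogenes at 28 and 31 of 542 (10.9%). None of 11 tested microRNA genes and 3 of 75 transfer RNA genes were called.

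Reads at ribosomal RNA genes took 0.270 ± 0.0586% of feature counts in wild type, 0.565 ± 0.0999% in mutant F2 and 0.305 ± 0.0477% in wild-type F2. Every mutant F2 library was above every wild-type library (exact two-sided permutation p = 0.1, the smallest that 3 against 3 libraries allow). Of the 11 shares so tested, those of protein-coding, non-coding RNA, snoRNA and lincRNA genes and of the X segment below reached the same p. Such separation was thus not particular to ribosomal RNA. The leading gene was rrn-3.1 (WBGene00004622, chromosome I, 15064838 to 15068346), a copy of the large-subunit ribosomal RNA, with 871, 1830.2 and 1085 CPM in wild type and 3489, 2876 and 2814 CPM in mutant F2 (log2 fold change 1.46, SE 0.36, adjusted p = 0.0171). The wild-type F2 had 818, 1649 and 1200.4 CPM and did not overlap mutant F2, with an adjusted p of 0.056, or 0.0204 when blocked on library number. The pair of identifiers named rrn-1.1, for the small-subunit ribosomal RNA, rose by log2 fold changes of 1.86 and 1.98. Ribosomal RNA genes are near-identical copies that overlap other annotated genes, so their separate values are uncertain.

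snoRNAs guide the chemical modification of ribosomal and other RNAs. The largest snoRNA increases were at C14E2.12 (WBGene00219816, chromosome X, 1831628 to 1831762), with 18.1, 21.3 and 31.4 CPM in wild type and 162, 58.3 and 155 CPM in mutant F2 (2.57, SE 0.42, adjusted p = 0.00125), and F43A11.8 (WBGene00045167, chromosome V, 11585191 to 11585361), with 35.8, 63.6 and 84.3 CPM and 330.1, 239 and 393 CPM (2.56, SE 0.39, adjusted p = 0.000612). Y67A10A.14 on chromosome IV rose by 2.10 (SE 0.22, adjusted p = 1.59e-05). These 3 were also called above wild-type F2 (log2 fold changes 1.72, 1.53 and 0.95, adjusted p = 0.0318, 0.0357 and 0.0192). Blocked on library number, which the labels do not describe as a pairing, 8 of 59 snoRNA genes were above wild-type F2 in place of 3, and none below (13.6%, background 6.37%). They included T08B6.64 (adjusted p = 0.0119), T26A8.6 (0.0131), F25H2.15 (0.0126) and Y74C9A.6 (0.0241). The other 7 snoRNA genes called higher had log2 fold changes of 1.46 to 2.00, and F48F5.7 was lower (-1.63). The snRNA gene T08G5.11 rose by 1.36. The 11 called snoRNA genes became 7 without mutant F2 library 4 or wild-type library 2.

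piRNA loci showed another pattern across the groups. 21ur-172 (WBGene00170296, chromosome IV, 14181356 to 14181376) had 13.6, 14.1 and 27.8 CPM in wild type, 46.1, 209 and 50.6 CPM in mutant F2 and 114, 53.9 and 77.6 CPM in wild-type F2. Its phenol wild-type level was 109 to 166 CPM. 21ur-9204 had 0.447, 0 and 1.88 CPM in wild type, 5.45, 45.2 and 4.58 CPM in mutant F2 and 16.2 to 25.8 CPM in phenol wild type. Mutant F2 library 3 was highest at several of these loci, and without it 7 piRNA loci were called in place of 13. The number was 8 without mutant F2 library 4, and 7, 5 and 8 without wild-type libraries 1, 2 and 3. Against phenol wild type 2 were called, and none of 84 was called between mutant F2 and wild-type F2. The share of all piRNA loci in the counts was 0.0608 ± 0.0123% in wild type and 0.0881 ± 0.0479% in mutant F2 (exact two-sided permutation p = 0.6).

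Over the 14 ribosomal RNA, snoRNA and snRNA genes called higher, the median log2 ratio of the mean CPM to wild type was 1.65 in mutant F2, 0.73 in wild-type F2, 1.68 in maternal-cross mutant F2, 1.83 in long-term mutants and 0.36 in phenol wild type. It was also raised in wild-type F2 of the maternal cross, at 1.04, and in F15 mutants of the paternal cross, at 1.24. Over the 12 piRNA loci called higher the median was 2.54 in mutant F2, 2.20 in wild-type F2, 2.02 in maternal-cross mutant F2, -1.76 in long-term mutants and 2.28 in phenol wild type. In wild-type F2 of the maternal cross it was 2.25, and in F15 mutants 0.50. These loci were chosen as higher than the column-kit wild type, and how far that choice sets their ratios above 0 in other groups was not tested.

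**Figure D4:**
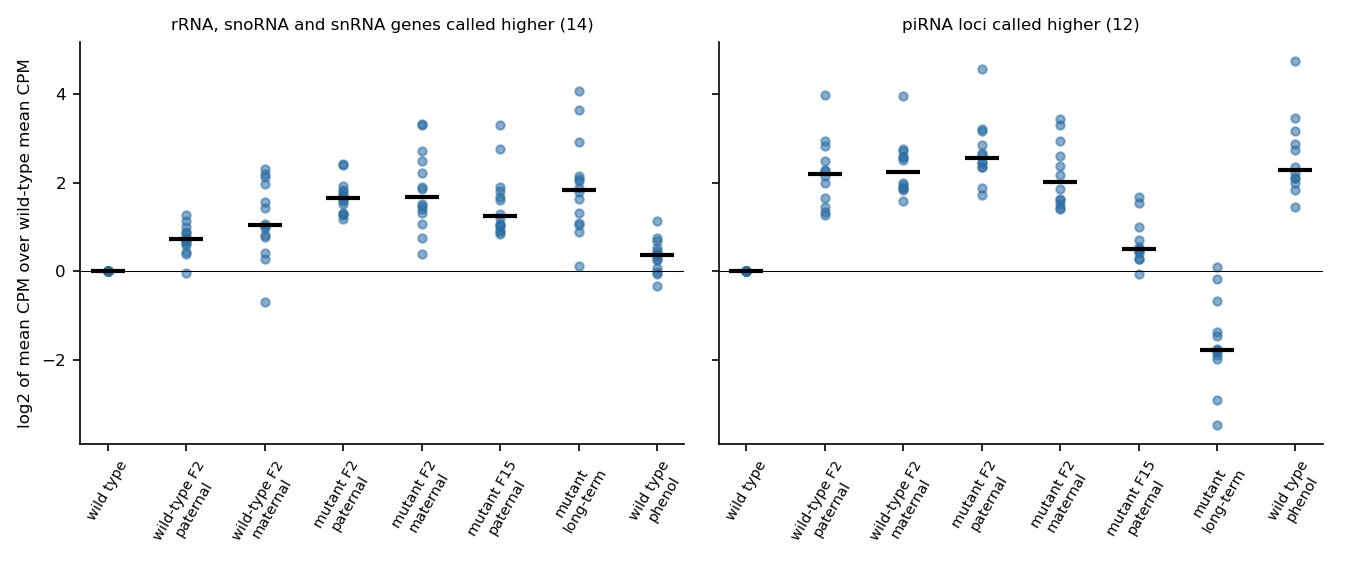
log2 ratio of the group mean CPM to the mean CPM of column-kit wild type (vertical axis) in 8 groups of 3 libraries, with 1 point per locus and the median as a bar, for the 14 ribosomal RNA, snoRNA and snRNA genes (left) and the 12 piRNA loci (right) called higher in mutant F2 of the paternal cross. Wild type is 0 by construction. On the right the phenol wild type (median 2.28) lies with the F2 groups, and the long-term mutants lie lowest (-1.76).

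meg-3 and meg-4 lie near each other on X, so the mutant F2 carry X chromosome of the mutant grandfather around both alleles. Within 2 Mb of their midpoint 34 of 319 tested features were called (10.7%, 15 higher and 19 lower), against 53 of 806 on the rest of X (6.58%) and 8.57% to 9.98% on the autosomes. The X segment took 2.07 ± 0.0327% of feature counts in wild type and 2.32 ± 0.223% in mutant F2 (exact two-sided permutation p = 0.1, the smallest possible). In wild-type F2 it took 2.11 ± 0.189%, which overlapped mutant F2. The share includes gid-2, at means of 1346, 4382 and 3846 CPM in wild type, mutant F2 and wild-type F2. Whether the segment's share differs without gid-2 was not tested, so the difference cannot be read as one of the segment at large. Against wild-type F2, 7 of 319 features of the segment were called (2.19%, background 2.28%) and 28 of 806 on the rest of X (3.47%). Blocking on the library number gave counts of 33 (10.3%, background 6.37%) and 74 (9.18%).

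The 5 largest increases in the segment were at non-coding RNA genes, several of them beside the mutated genes. linc-6 (WBGene00219700, chromosome X, 1982710 to 1982883), a long intergenic non-coding RNA gene beside meg-3, had 656, 674 and 519 CPM in wild type, 2710.2, 2354 and 2496 CPM in mutant F2 and 1039, 746 and 891 CPM in wild-type F2. Mutant F2 was above both groups without overlap (log2 fold changes 2.20, SE 0.27, with adjusted p = 6.9e-05 over wild type and 1.52 with adjusted p = 0.00256 over wild-type F2). F52D2.14, a non-coding RNA gene that overlaps linc-6, had 4.47, 6.03 and 18.0 CPM in wild type and 97.1, 33.5 and 83.2 CPM in mutant F2 (3.02, SE 0.60, adjusted p = 0.00487). C36C9.10, a non-coding RNA gene beside meg-4 (chromosome X, 1681752 to 1681886), had 6.26, 3.85 and 5.98 CPM and 38.2, 23.3 and 45.1 CPM (2.89, SE 0.46, adjusted p = 0.000989). The snoRNA gene C14E2.12 described above lies between the mutated genes, and C05D9.12 in the segment rose by 2.78 (SE 0.71, adjusted p = 0.0216). F52D2.14, C36C9.10 and C05D9.12 were not called against wild-type F2 (adjusted p = 0.127, 0.642 and 0.395). The wild-type F2 overlapped mutant F2 at C36C9.10 (29.8, 9.50 and 29.0 CPM) and at C05D9.12. Blocked on library number, F52D2.14 and C05D9.12 were called (0.00148 and 0.0273) and C36C9.10 was not (0.0936).

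All 19 decreases in the segment were at protein-coding genes, fard-1 (above) the largest. inso-1 had 979, 785 and 681 CPM in wild type, 213, 267 and 145 CPM in mutant F2 and 286, 357 and 251 CPM in wild-type F2 (-1.80, SE 0.44, adjusted p = 0.0181). F13C5.2, which overlaps F13C5.3, had 1299, 1385 and 809 CPM in wild type, 332, 405 and 217 CPM in mutant F2 and 384, 657 and 302 CPM in wild-type F2 (-1.70 against wild type, SE 0.36, adjusted p = 0.008). dot-1.5, of a family of histone H3 methyltransferases, fell by 1.25 on the log2 scale, the neuropeptide receptor gene npr-11 by 2.16, and daf-3, a SMAD transcription factor of dauer formation, by 0.91. Of the 19 decreases only fard-1 and meg-3 were also called below wild-type F2 (adjusted p = 0.0232 and 0.00157). Blocked on library number, only meg-3 and dot-1.5 were (0.00356 and 0.0169). At npr-11, daf-3, inso-1 and F13C5.2 the wild-type F2 overlapped mutant F2 (unblocked adjusted p = 0.93, 0.894, 0.801 and 0.739). The segment's count against wild type was 12 without mutant F2 library 4, 22 without library 1, and 18, 16 and 24 without wild-type libraries 1, 2 and 3.

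**Figure D5:**
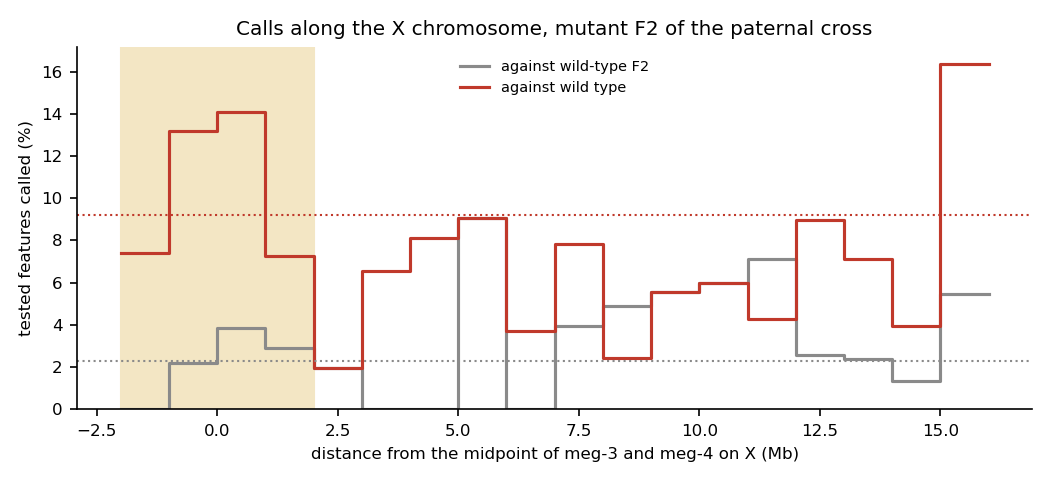
Percent of tested features called (vertical axis) in bins of 1 Mb along X by distance from the midpoint of meg-3 and meg-4 (horizontal axis, Mb), for paternal-cross mutant F2 against wild type (red) and against wild-type F2 of the same cross (grey), which share the mutant F2 libraries. Dotted lines are the percent over all features, 9.19 and 2.28, and the shaded band is the segment within 2 Mb. In red the bins on either side of the midpoint reach 13.2% and 14.1%, and the last bin of X reaches 16.4%.

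Setting mutant F2 against wild-type F2 of the same cross compares genotypes that share the grandparents. It gave 233 called features (2.28%), 65 higher (0.635%) and 168 lower (1.64%). The labels do not say whether the library numbers that these groups share mark pairs. Libraries with the same number tended to deviate alike from their group means, so a block on that number was also fitted. It gave 652 calls (6.37%), 224 higher (2.19%) and 428 lower (4.18%), including 57 of the 65 and 163 of the 168. Without the block, no listed gene was higher in any of the 10 lists, and 2 germ granule genes, meg-3 and meg-4, and 1 ribosomal protein gene were lower. meg-3 had 20.7, 20.4 and 29.9 CPM in wild-type F2 and meg-4 111, 119.7 and 214 CPM, above every mutant F2 library (log2 fold changes -2.40 and -2.98, adjusted p = 0.00157 and 0.014). Without mutant F2 libraries 1 and 4 in turn 136 and 116 features were called, without wild-type F2 library 1 it was 141, and without library 3 it was 29 higher and 123 lower. This comparison shares the mutant F2 libraries with that against wild type.

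The largest increases against wild-type F2 were at pals-27, with 0.698, 0 and 0.736 CPM in wild-type F2 and 14.6, 3.21 and 15.2 CPM in mutant F2 (log2 fold change 4.50, SE 0.98, adjusted p = 0.0169), then the pseudogene WBGene00008306 (0.471 ± 0.398 and 8.40 ± 3.46 CPM, 4.13, SE 0.80, adjusted p = 0.00713). ugt-52, a UDP-glucuronosyltransferase gene on chromosome IV, had 2.33, 5.94 and 1.72 CPM and 24.3, 32.9 and 15.7 CPM (2.87, SE 0.50, adjusted p = 0.00265). At all 3 every column-kit wild-type library was below 5 CPM. The pals-27 call was lost in 5 of 14 alternatives. The largest decreases were at WBGene00014730 (-5.63, SE 1.34, adjusted p = 0.0347, lost in 6 of 14), prx-11, a peroxin gene of peroxisomes that overlaps gale-1, with 394, 317 and 165 CPM in wild-type F2 and 8.27, 23.3 and 3.62 CPM in mutant F2 (-4.64, SE 0.70, adjusted p = 0.000985), and pqn-32, with 17.7, 94.8 and 56 CPM in wild-type F2 (-4.39, SE 0.68, adjusted p = 0.00119). qdpr-1 was also higher than in wild-type F2 (1.47, SE 0.31, adjusted p = 0.0129), and W03D8.7, F39F10.2, cdh-12 and faah-5 were lower (log2 fold changes -1.37, -1.35, -1.55 and -1.47). Under the block, rde-11 was called higher too (adjusted p = 0.00884 against 0.539 without it).

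Against mutant F2 of the maternal cross, which carried the same mutations, 519 features were called (5.07%), 315 higher in the paternal cross (3.08%) and 204 lower (1.99%). Total-count scaling gave 797 calls, 638 higher and 159 lower, and moved the median of all features from 0.03 to 0.29. The count was 314 and 275 without paternal-cross mutant libraries 1 and 3 in turn, and 228 and 295 without maternal-cross libraries 3 and 4. ndx-2, a Nudix hydrolase gene, which overlaps W02G9.9, had 109, 370.3 and 24.6 CPM in the paternal cross and 3.11, 0 and 1.34 CPM in the maternal cross (log2 fold change 6.79, SE 1.00, adjusted p = 0.000581). The collagen gene col-71 had 1036, 1483 and 838 CPM and 29.5, 3.27 and 7.87 CPM (6.23, SE 1.11, adjusted p = 0.00281), with column-kit wild type at 1035 ± 62.4 CPM. K07A1.3, which overlaps dut-1, had 63 ± 5.25 and 0.902 ± 0.870 CPM (6.07, SE 0.95, adjusted p = 0.000979). At these 3 genes every paternal-cross mutant library was above every maternal-cross one, and column-kit wild type was also high at ndx-2 (570 ± 13.6 CPM) and K07A1.3 (97.4 ± 44.4 CPM).

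In the other direction, F58G6.7 had no count in any library of wild type, wild-type F2 or mutant F2 of the paternal cross, and 2.18, 11.9 and 2.34 CPM in mutant F2 of the maternal cross (adjusted p = 0.00641). The F-box gene fbxa-171 had 1 count in the 3 paternal-cross libraries together and 34.0 ± 15.1 CPM in the maternal cross (adjusted p = 3.42e-05). clec-262, a C-type lectin gene, had 0.219 ± 0.244 and 24.1 ± 21.4 CPM (adjusted p = 0.000402). Both fbxa-171 and clec-262 were below 2 CPM in every column-kit wild-type library.

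Against the long-term mutants, the strain of the grandfather, 845 features were called (8.26%), 517 higher (5.05%) and 328 lower (3.21%). Total-count scaling gave 910 higher and 217 lower, and moved the median of all features from 0.06 to 0.32. The count was 461 and 477 without mutant F2 libraries 1 and 3 in turn, and 324 and 382 without long-term libraries 1 and 2. K07A1.3 led here (log2 fold change 6.67, SE 1.19, adjusted p = 0.00217), with C35B1.5 (236 ± 61.2 CPM in mutant F2 and 1.66 ± 1.46 CPM in long-term mutants, 6.27, SE 0.74, adjusted p = 9.33e-05). The pseudogene WBGene00007376 on chromosome II, which overlaps srh-48, had 4093, 3759 and 3274 CPM in mutant F2 and 54.8, 47.0 and 31.7 CPM in long-term mutants (6.02, SE 1.21, adjusted p = 0.00513). Its column-kit wild-type level was 2325 ± 459 CPM, against which mutant F2 was not called (adjusted p = 0.596). fbxa-171, F58G6.7 and F16B4.4 were lower than in long-term mutants (adjusted p = 6.97e-05, 0.00716 and 0.0204), F16B4.4 with no count in any mutant F2 library. The long-term levels of F58G6.7 and F16B4.4 rest partly on the shallow library 3, where 3 counts are 23.8 CPM.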

How the data were processed

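The deposited files give whole-number counts of small RNA reads per feature, and per the submitters' processing notes cutadapt, FastQC, HTSeq, DESeq2 and the ce11 build were used. The aligner, the use of strand and the treatment of reads with several matches are not given in the sources used here, and the tallies for reads matching several places are 0 in the files. Closing tally lines were dropped. Names and coordinates came from the WBcel235 annotation. R 4.3.3 and edgeR 4.0.16 gave the tests (quasi-likelihood F test, trimmed mean of M values scaling, all 21 column-kit libraries in 1 fit, adjusted p under 0.05 by Benjamini-Hochberg). DESeq2 1.42.0 was an alternative. CPM are counts per 1e+06 feature counts, and a standard error is the log2 fold change over the root of F. Intervals are exact at 95% and cover counting error only. The fit was tested on simulated data.

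Named features were called, with non-overlapping libraries: the 10 largest changes each way with at least 5 CPM, the 5 most abundant each way with a log2 fold change of at least 1, every called listed gene (also htp-2, mut-14 and zim-3, whose libraries overlap), the 3 largest each way in the other comparisons, and meg-3, meg-4, sid-1, rde-11 and gfp in any case. Members of classes and of the X segment were added by class or place. The members, lists and tests were chosen with earlier results of these data known. Whether the library numbers shared by mutant F2 and wild-type F2 mark pairs is not in the labels. Deviations from the group means correlated at 0.192, 0.3 and 0.253 for numbers 1, 3 and 4, and the block on these numbers rests on that alone. No sequence was used here. Alternatives were other scalings, count minimums, DESeq2, fits of only the groups compared, the replicate block, phenol wild type as baseline and leaving out single libraries.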

Additional observations from a re-analysis of the deposited data

How the results depend on the processing

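Against wild type (940 called, 447 higher, 493 lower), DESeq2 called 753 lower, a fit of only these groups 812 lower, relative log expression scaling 272 higher, and total-count scaling 191 higher with 16 listed genes called in place of 29. Without a count filter 1474 were called, 954 lower, with 61 in the X segment, 24 piRNA loci and 18 snoRNA genes, and with at least 50 counts 5 piRNA loci. Phenol wild type as baseline gave 1658, 1066 lower, and 2 piRNA loci. The replicate block, on numbers at which these libraries did not deviate alike, gave 98, with 28 higher, 70 lower, 1 listed gene, 4 in the X segment, 2 piRNA loci and 2 snoRNA genes. Leaving out 1 library gave 334 to 885 called, 140 to 425 higher, 153 to 540 lower, 6 to 24 listed genes, 12 to 33 in the X segment, 5 to 11 piRNA loci and 7 to 14 snoRNA genes. Against wild-type F2 (233), DESeq2 gave 101 higher, no filter 750 (247 higher, 503 lower), the replicate block 652 (224 higher, 428 lower), and leaving out 1 library 116 to 202 (23 to 55 higher, 78 to 149 lower). Against maternal-cross mutant F2 (519), DESeq2 gave 316 lower, no filter 1250 (721 higher, 529 lower), only the groups compared 337 (125 lower), the replicate block 332 (114 lower), total-count scaling 797 (638 higher), and leaving out 1 library 228 to 522 (145 to 288 higher, 83 to 274 lower). Against long-term mutants (845), no filter gave 1366 (841 higher, 525 lower), the replicate block 575 (202 lower), total-count scaling 910 higher and 217 lower, and leaving out 1 library 324 to 737 (170 to 492 higher, 154 to 324 lower). Log2 fold changes that turned sign were, with phenol wild type as baseline, 21ur-9204 (-0.12), fard-1 (1.54), T09B4.14 (-0.18) and clec-262 (0.082), and for gfp (0.12) -0.0267 with the replicate block, -0.045 with total-count scaling and, leaving out 1 library, -0.00715 (without mutant F2 library 4) to 0.24. Of 62 named calls against wild type, 9 held in every alternative run. The cause of these shifts was not tested. Low counts limit features under about 1 CPM.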

Other observations

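Features that overlap a microRNA gene on the opposite strand were called more often than the background of 9.19%: 9 of 45 tested (20%), 7 of them higher, with a median log2 fold change of 0.76. Beside T09B4.14 and gid-2, K01F9.7 opposite mir-90 stood at a mean of 93.4 CPM in wild type, 574 CPM in mutant F2 and 570 CPM in wild-type F2 (log2 fold change 2.81). Phenol wild type was as high at K01F9.7, with 565 to 709 CPM, and the column-kit wild type ranged from 32.0 to 202 CPM. hmr-1, the worm cadherin of cell adhesion, opposite mir-8190, stood at means of 136, 264 and 151 CPM (1.12). The part of microRNA reads in these counts was not tested.

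At 16 of the 10230 tested features the 12 F2 libraries of both crosses and both genotypes did not overlap the 8 other column-kit libraries. The F2 were higher at 13 and lower at 3. Those 8 were of wild type, F15 mutants and long-term mutants, without the shallow long-term library. Of these 16, 11 were called in mutant F2 against wild type, beside 9.19% of all tested features. The 16 were chosen as lying apart from wild type among others, which favours such calls, so the 11 are no separate support. The 11 included the piRNA loci 21ur-3323, 21ur-9555, 21ur-9204 and 21ur-172, the C-type lectin gene clec-199, gid-2 and T09B4.14. gid-2 ranged from 2898 to 7675 CPM in the F2 libraries. The phenol wild type, which is no F2, overlapped the range of the F2 libraries at 15 of the 16 features, with 5657 to 8206 CPM at T09B4.14 (2548 to 8812 CPM in the F2) and 12.6 to 15.2 CPM at clec-199 (11.2 to 27.4 CPM in the F2).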
